A study of Vitis vinifera with 12 samples.

Results

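Transcript levels of 5 genes for plastid enzymes were followed in developing berries of the grapevine (Vitis vinifera) cultivar Victoria, a table grape with white berries. Of these genes, 3 are for enzymes of isoprenoid precursor synthesis (DXS1, DXR and HDR) and 2 for phytoene synthases (PSY1 and PSY2). The members were taken by their IDs from a table of 22580 gene IDs: VIT_05s0020g02130 (DXS1), VIT_17s0000g08390 (DXR), VIT_03s0063g02030 (HDR), VIT_04s0079g00680 (PSY1) and VIT_12s0028g00960 (PSY2). All 5 of the 5 listed IDs were present, and none was listed at 0 in any library. The symbols come from the definition of this set. The deposited table pairs no ID with a name, so the identity of the genes and of the tissue was not checked against annotated markers. Each of the 4 berry ages, which were 40, 50, 60 and 80 days counted from full bloom, had 3 libraries called a, b and c, for a total of 12. All groups share the cultivar and the tissue, and the labels record no treatment. Per the labels, RNA of biological replicates was extracted separately and then pooled. Whether the 3 libraries of each age stem from different berries or from a common pool is not clear from this, and the spread between them, on which every p-value rests, may be technical.

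Plant plastids make the universal building blocks of isoprenoids, isopentenyl and dimethylallyl diphosphate, by the methylerythritol phosphate (MEP) pathway. DXS, the first enzyme of that pathway, joins pyruvate with glyceraldehyde phosphate and is widely regarded as a main control point; DXR makes the first committed intermediate, and HDR catalyses the last step, which releases both building blocks. Phytoene synthase then condenses geranylgeranyl diphosphate into phytoene, the first carotenoid, and is the entry enzyme of carotenoid synthesis. In grape berries the same plastid supply also feeds monoterpenes, the floral aroma compounds of muscat grapes, and carotenoids are the source of abscisic acid and of norisoprenoid aroma compounds.

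The genes at the start of the MEP pathway and of the carotenoid pathway were lower in the oldest than in the youngest berries, while the gene for the last MEP step was higher. From 40 to 80 days the mean FPKM (fragments per kilobase of transcript per 1000000 fragments) of PSY1 fell 8.14-fold, that of PSY2 5.95-fold and that of DXS1 5.16-fold, whereas that of HDR rose 2.37-fold. DXR had a mean 1.53-fold lower at 80 days, a difference too small to be called here. A gene was called when the Benjamini-Hochberg adjusted p of limma was under 0.05 over all 14743 tested genes with a size of no less than 1 on the log2(FPKM + 1) scale. Under that rule 4 of the 5 members were called between 40 and 80 days, 3 lower and 1 higher, where 23.1% of all tested genes were called (16.1% lower and 7.06% higher). The median log2 difference was -2.27 over the members and -0.11 over all tested genes. In RNA extracted from fruit, fewer cells of a type and less RNA per cell cannot be told apart.

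**Figure D1:**
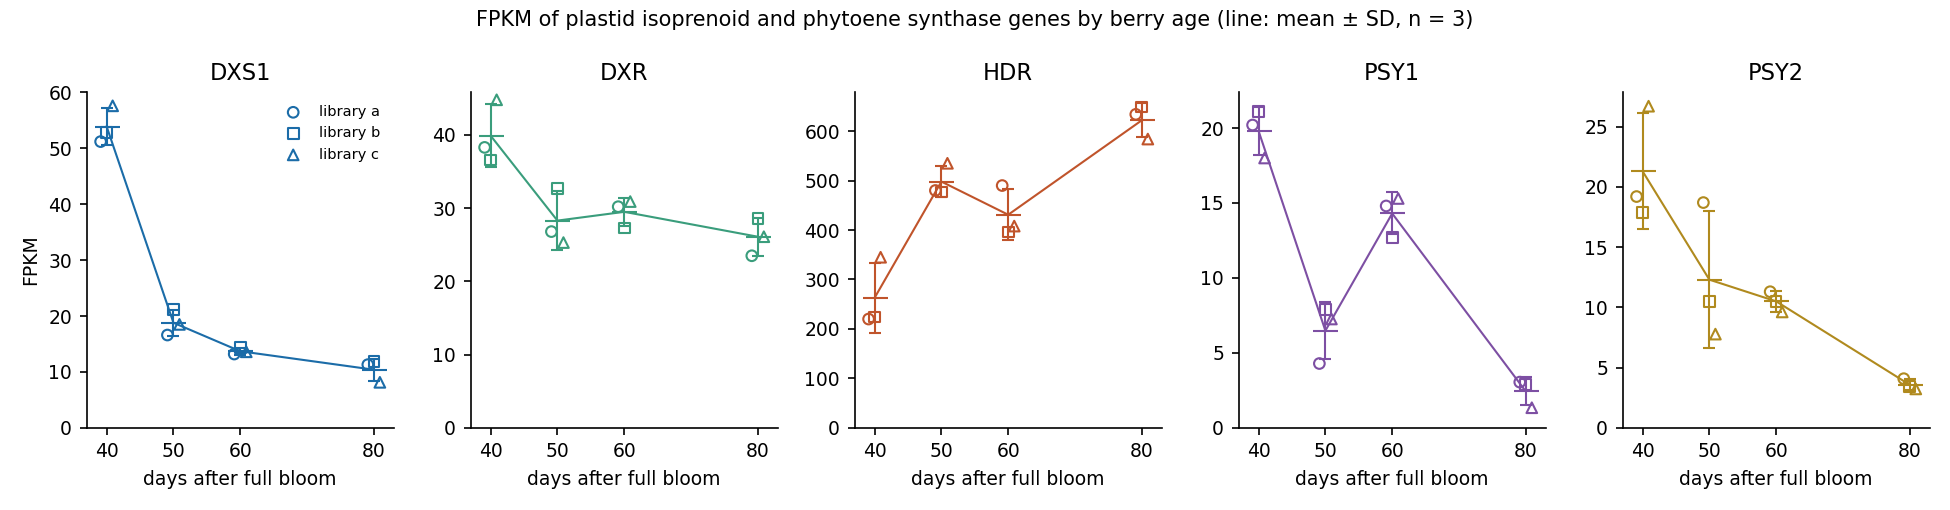
Deposited FPKM of DXS1, DXR, HDR, PSY1 and PSY2 (panels, each with its own axis from 0) against days after full bloom, with open symbols for libraries a, b and c and lines joining means ± SD (n = 3). Of the 5, HDR alone ended above its 40-day mean, and PSY1 had its second highest mean at 60 days.

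The libraries differed in summed FPKM and in estimated depth. Summed FPKM per library ranged from 1058844 to 1395232, and the sums were higher at 80 than at 40 days. With each library scaled to the same sum, the median 40-to-80-day difference of all tested genes moved from -0.11 to -0.35. Absolute depth is unknown. Depth relative to library a at 40 days was estimated from the steps between low values. It ranged from 0.84 (library c at 40 days) to 1.75 (library a at 50 days). Over all tested genes the libraries that deviated most from their age mean were 40-day library c and 80-day library a (SD of the deviations 0.292 and 0.305 in log2 units, 0.189 to 0.265 in the rest). Without both libraries the number of members called was unchanged in each comparison except from 40 to 50 days, where HDR was added.

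DXS1, the entry enzyme of the MEP pathway, lost most of its transcript before 50 days. It stood at 51.2, 52.8 and 57.6 FPKM in libraries a, b and c at 40 days and at 16.6, 21.2 and 18.5 FPKM at 50 days. At 60 days the values were 13.2, 14.4 and 13.6 FPKM, and at 80 days 11.3, 11.9 and 8.14 FPKM. All libraries of an age lay below all libraries of the age before, at each of the 3 steps. Such a separation downward was seen in 32.5% of tested genes from 40 to 50 days, in 21.6% from 50 to 60 days and in 25.8% from 60 to 80 days. How many tested genes separated downward at all 3 steps was not counted. On the log2 scale the change from 40 to 50 days was -1.48 with an SE of 0.13 (limma adjusted p = 1.62e-05), and 3.89% of tested genes had a difference as low or lower. The later steps were smaller, -0.42 ± 0.13 from 50 to 60 days (limma adjusted p = 0.0457) and -0.38 ± 0.13 from 60 to 80 days (limma adjusted p = 0.0455), and neither reached the minimum difference. Their adjusted p was close to the threshold and was lost in 11 and 14 of 23 alternatives; without 80-day library c the last step was -0.22 (limma adjusted p = 0.148). Over the whole course the difference was -2.28 ± 0.13 (limma adjusted p = 1.44e-07). From 40 to 60 days it was -1.90 ± 0.13 (limma adjusted p = 1.97e-06). From 50 to 80 days it was -0.80 ± 0.13 (limma adjusted p = 0.000648), short of the minimum difference. That adjusted p stayed under 0.05 in each of 23 alternatives. With each library scaled to the same sum the 50-to-80-day difference was -1.01 (limma adjusted p = 5.47e-05) and was called.

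DXR, which makes the first committed intermediate of the pathway, was the steadiest of the 5. Its values in libraries a, b and c were 38.3, 36.6 and 44.8 FPKM in the 40-day berries and 26.8, 32.7 and 25.3 FPKM in the 50-day berries. They were 30.2, 27.3 and 30.9 FPKM in the 60-day berries and 23.5, 28.6 and 26.1 FPKM in the 80-day berries. In deposited FPKM the 40-day libraries were all above those of each later age, and the libraries of the 3 later ages overlapped. Across all 12 libraries its highest value was 1.91 times its lowest, against 2.95 times for HDR, 7.08 for DXS1, 8.27 for PSY2 and 15.7 for PSY1. On the log2 scale the difference from 40 to 50 days was -0.49 ± 0.12 (limma adjusted p = 0.00643) and that from 40 to 80 days -0.60 ± 0.12 (limma adjusted p = 0.00109). Both passed the adjusted p and missed the minimum difference, and 27.1% of tested genes had a 40-to-80-day difference as low or lower. Between the later ages no difference passed the test: it was 0.07 ± 0.12 from 50 to 60 days (95% confidence interval -0.19 to 0.32), -0.17 ± 0.12 from 60 to 80 days (-0.43 to 0.08) and -0.11 ± 0.12 from 50 to 80 days (-0.37 to 0.15). With each library scaled to the same sum the last of these was -0.34 and passed the adjusted p (limma adjusted p = 0.0257), without reaching the minimum difference. On that scale the 60-to-80-day difference was -0.31 (limma adjusted p = 0.0509). The 80-day libraries (17.1, 20.5 and 20) then lay below all 50- and 60-day libraries, of which 60-day library b was lowest (21.3).

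HDR, the last enzyme of the pathway, was the most abundant of the 5 and moved the other way. It had 220, 224 and 345 FPKM at 40 days and 480, 477 and 535 FPKM at 50 days. At 60 days the values were 490, 396 and 408 FPKM, and at 80 days 634, 649 and 584 FPKM. In deposited FPKM the 40-day libraries lay below all later ones, and the 80-day libraries lay above all others. Library c at 40 days stood apart from libraries a and b of that age. With only the libraries of 40 and 80 days compared, 25.9% of tested genes separated upward. The share of tested genes with the whole pattern of HDR, including the ages between, was not counted. From 40 to 80 days HDR rose by 1.27 ± 0.16 in log2 units (limma adjusted p = 3.72e-05), and 4.98% of tested genes had a difference as high or higher. With each library scaled to the same sum this difference was 0.995, just short of the minimum (limma adjusted p = 6.93e-05).

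The rise of HDR was not even. From 40 to 50 days the difference was 0.95 ± 0.16 on the log2 scale (limma adjusted p = 0.000702), short of the minimum. It reached 1.16 (limma adjusted p = 5.54e-05) without library c at 40 days, the library with the highest 40-day value. From 50 to 60 days the difference was -0.21 ± 0.16 (limma adjusted p = 0.385), and from 60 to 80 days 0.53 ± 0.16 (limma adjusted p = 0.023), which passed the adjusted p, though not in 6 of 23 alternatives, and missed the minimum difference. In order of level the 80-day mean was followed by 50, 60 and 40 days, and 2 pairs of neighbours, 80 with 50 days (0.32 ± 0.16, limma adjusted p = 0.121) and 50 with 60 days, missed the test. In deposited FPKM the libraries of 50 and 80 days do not overlap. With each library scaled to the same sum they do: 50-day library c had 498, above the 80-day libraries (462, 465 and 448). Over 23 alternatives the difference from 50 to 80 days was 0.08 to 0.38, with limma adjusted p up to 0.673. It passed the adjusted p in 4 of 23, among them sample weights (limma adjusted p = 0.0311) and the fit without 40-day library c (limma adjusted p = 0.0205).

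PSY1, a phytoene synthase, fell, came back and fell again. It had 20.2, 21.1 and 18.0 FPKM at 40 days and 4.29, 7.89 and 7.26 FPKM at 50 days. At 60 days it had 14.8, 12.7 and 15.3 FPKM, and at 80 days 3.05, 2.89 and 1.34 FPKM. No library of one age overlapped with one of another, so the order of ages by level, 40, 60, 50 and 80 days, was complete in the single libraries. The share of tested genes with a complete order was not counted. Separation at a single step was common: 32.5% of tested genes downward from 40 to 50 days, 19.1% upward from 50 to 60 days and 25.8% downward from 60 to 80 days. The fall from 40 to 50 days was -1.51 ± 0.23 on the log2 scale (limma adjusted p = 0.000405), the rise from 50 to 60 days 1.06 ± 0.23 (limma adjusted p = 0.00916) and the fall from 60 to 80 days -2.19 ± 0.23 (limma adjusted p = 4.76e-05). The last of these was among the larger falls of the interval, with 1.12% of tested genes as low or lower, and for the rise 2.08% of tested genes were as high or higher. Because the pseudocount of 1 understates changes of low values, the mean FPKM are given as well: 19.8 ± 1.6 (SD, n = 3), 6.48 ± 1.9, 14.3 ± 1.4 and 2.43 ± 0.94 from the youngest to the oldest berries.

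The return of PSY1 at 60 days was close to the threshold. It passed the adjusted p in each of the alternatives run, with differences of 0.76 to 1.21, but missed the minimum difference in 4 of 24: with a pseudocount of 5 (0.76), with each library scaled to the same sum (0.96), with sample weights (0.95) and without 50-day library a, which had the lowest 50-day value (0.83, limma adjusted p = 0.0303). The neighbours in order of level, 40 and 60 days, differed by -0.44 ± 0.23 (limma adjusted p = 0.127) and missed the test, although their libraries do not overlap. The adjusted p was passed in 3 of 23 alternatives: in the fit of only these ages (limma adjusted p = 0.0119), with sample weights (0.0186) and with a pseudocount of 5 (0.039). A separation downward from 40 to 60 days was seen in 37.3% of tested genes. From 50 to 80 days the difference was -1.13 ± 0.23 (limma adjusted p = 0.00225), and it was -0.99 without library b at 50 days and -0.88 without library c at 80 days.

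PSY2, the other phytoene synthase, had means that went down at each step. It had 19.2, 17.9 and 26.7 FPKM at 40 days and 18.7, 10.5 and 7.78 FPKM at 50 days. At 60 days it had 11.3, 10.5 and 9.62 FPKM, and at 80 days 4.08, 3.41 and 3.23 FPKM. The 50-day libraries were the most scattered of any member at any age (coefficient of variation 46.1%), with library a within the 40-day range and library c below all 60-day libraries. The same library a at 50 days held the lowest 50-day value of PSY1, the highest 50-day value of PSY2 and the highest estimated depth; the part of depth or of this library in either value was not tested. From 60 to 80 days the change of PSY2 was -1.33 ± 0.25 in log2 units (limma adjusted p = 0.00198), and all 80-day libraries lay below all 60-day libraries. With a pseudocount of 5 this change was -0.85 and was not called. From 40 to 80 days the fall was -2.27 ± 0.25 (limma adjusted p = 1.44e-05). From 40 to 50 days the difference was -0.80 ± 0.25 (limma adjusted p = 0.0219), not called, but it was -1.13 and called when 50-day library a was left out (limma adjusted p = 0.00108). The adjusted p was lost in 6 of 23 alternatives, among them those without 50-day library c (-0.55, limma adjusted p = 0.084), without 40-day library c (-0.64, limma adjusted p = 0.0825) and without 50-day library b (-0.74, limma adjusted p = 0.0683). No difference between the neighbours 50 and 60 days passed the test (-0.13 ± 0.25, 95% confidence interval -0.68 to 0.41). From 40 to 60 days the difference was -0.94 ± 0.25 (limma adjusted p = 0.00858), short of the minimum. Its adjusted p stayed under 0.05 in each of 23 alternatives. It was called with each library scaled to the same sum (-1.05) and without 40-day library b (-1.04). The libraries of 40 and 60 days separated downward, as in 37.3% of tested genes.

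Read by interval, 2 of the 5 members were called from 40 to 50 days, DXS1 and PSY1, both lower, against 11.9% of tested genes called in either direction and 8.43% called lower. From 50 to 60 days 1 was called, PSY1, higher, against 4.32% called in either direction and 2.01% called higher. From 60 to 80 days, the longest of the intervals, the 2 phytoene synthases were called, both lower, against 9.48% called in either direction and 6.8% called lower. Across longer spans, DXS1 was called lower from 40 to 60 days (15.8% of tested genes called, 10.3% lower), and both phytoene synthases were called lower from 50 to 80 days (11.8% called, 8.15% lower). In the moderated F test over the 4 ages 4 of the 5 were called, DXR being left out by the minimum range of 1, and 30.6% of all tested genes were called. The adjusted p alone was passed by all 5 in that test, as by 73.1% of tested genes. DXR had a range of age means of 0.60 on the log2 scale (limma adjusted p = 0.00391). Between ages, the adjusted p alone was passed by 5 members from 40 to 50 days (43.6% of tested genes), 2 from 50 to 60 days (19.3%), 4 from 60 to 80 days (34.8%), 5 from 40 to 80 days (60.2%), 4 from 40 to 60 days (51.3%) and 3 from 50 to 80 days (43.4%). These counts include the passes described above that were lost in some alternatives, those of PSY2 from 40 to 50 days, of DXS1 at both later steps and of HDR from 60 to 80 days.

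In deposited FPKM, separation of the single libraries of one age from those of another was common in the whole table. With each library scaled to the same sum, HDR lost its separation from 50 to 80 days. DXR then gained one downward from 50 to 80 and from 60 to 80 days. Shares of tested genes on that scale were not counted. From 40 to 50 days DXS1, DXR and PSY1 separated downward and HDR upward, where 32.5% and 22.8% of tested genes did so. From 50 to 60 days DXS1 separated downward (21.6% of tested genes) and PSY1 upward (19.1%). From 60 to 80 days DXS1, PSY1 and PSY2 separated downward (25.8%) and HDR upward (22% of tested genes). From 40 to 80 days all members separated, 4 downward (38.5%) and HDR upward (25.9%). The same held from 40 to 60 days (37.3% downward and 24.9% upward), and from 50 to 80 days DXS1, PSY1 and PSY2 separated downward (29.7%) and HDR upward (23.1%).

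**Figure D2:**
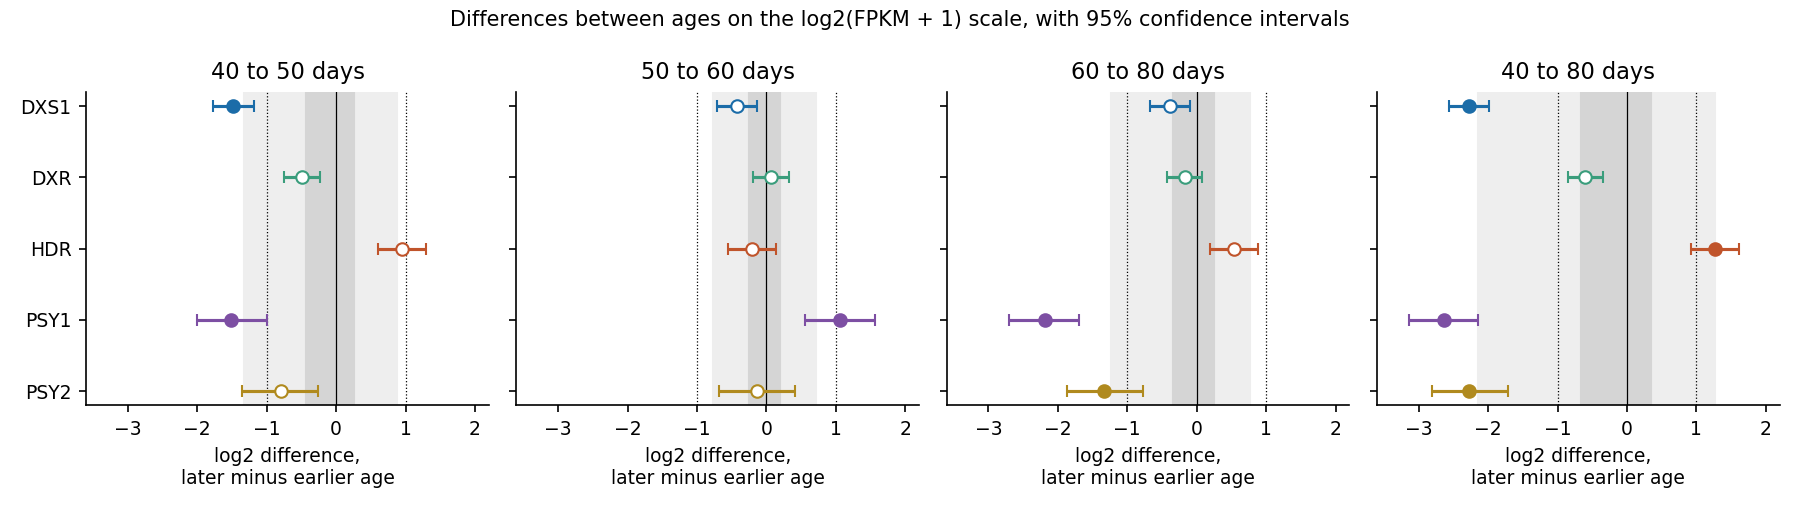
Differences between ages of each gene on the log2(FPKM + 1) scale (points, later minus earlier age) with 95% confidence intervals from limma; filled points were called, and dotted lines mark the minimum difference of 1. Dark and light grey bands span the 25th to 75th and the 5th to 95th percentiles of all 14743 tested genes; from 40 to 80 days the light band runs from -2.14 to 1.27, and DXS1, PSY1 and PSY2 lie below it.

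FPKM are scaled by transcript length, so levels of different genes can be set side by side. Within a library the order of the MEP genes by FPKM changed at the first step. At 40 days DXS1 was above DXR in all 3 libraries, with a DXR to DXS1 ratio of 0.748, 0.694 and 0.778. At each later age DXR was above DXS1 in every library, with mean ratios of 1.51 ± 0.12 (SD, n = 3), 2.16 ± 0.22 and 2.56 ± 0.58 in order of age. The libraries of 60 and 80 days overlapped in this ratio. The mean ratio of HDR to DXR was 6.51 ± 1.0 in the 40-day berries and 17.9 ± 3.3, 14.6 ± 1.5 and 24.0 ± 2.6 in the 50-, 60- and 80-day berries. The 40-day libraries (5.74 to 7.69) were below all others and the 80-day libraries (22.4 to 27) above all others. A ratio of FPKM within a library does not depend on the scaling between libraries. With 1 added to each FPKM, as in the test, this no longer holds exactly, least so for low values. The log2 ratio, with 1 added to each FPKM, differed among the 4 ages for DXR to DXS1 (range of age means 1.68) and for HDR to DXR (1.87), each with an exact permutation p = 0.00026 over all partitions of the 12 libraries into 4 groups of 3, and 0.00039 after Benjamini-Hochberg adjustment over 3 ratios. The ratios were chosen with earlier results of these data known, and the adjustment does not cover that choice.

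In the single libraries the ratio of PSY1 to PSY2 lay between 0.23 and 1.59. In order of age their summed FPKM was 41.0 ± 3.2 (SD, n = 3), 18.8 ± 4.0, 24.8 ± 1.5 and 6.0 ± 1.3. PSY1 made up 48.6% ± 7.3, 36.6% ± 16, 57.6% ± 3.4 and 39.3% ± 8.7 of that sum at the same ages. PSY1 was above PSY2 in all 3 libraries at 60 days, with ratios of 1.31, 1.21 and 1.59, and below it in all libraries at 50 and 80 days. At 40 days library c, with a ratio of 0.674, stood on the other side of libraries a and b (1.05 and 1.18). The log2 ratio of PSY1 to PSY2 did not pass the test over the 4 ages (range of age means 1.20, exact permutation p = 0.106, adjusted 0.106 over 3 ratios). The courses of the 2 genes are therefore not shown to differ with these libraries, although PSY1 alone was called from 50 to 60 days. How fragments shared between related genes were assigned is not given in the sources used here.

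**Figure D3:**
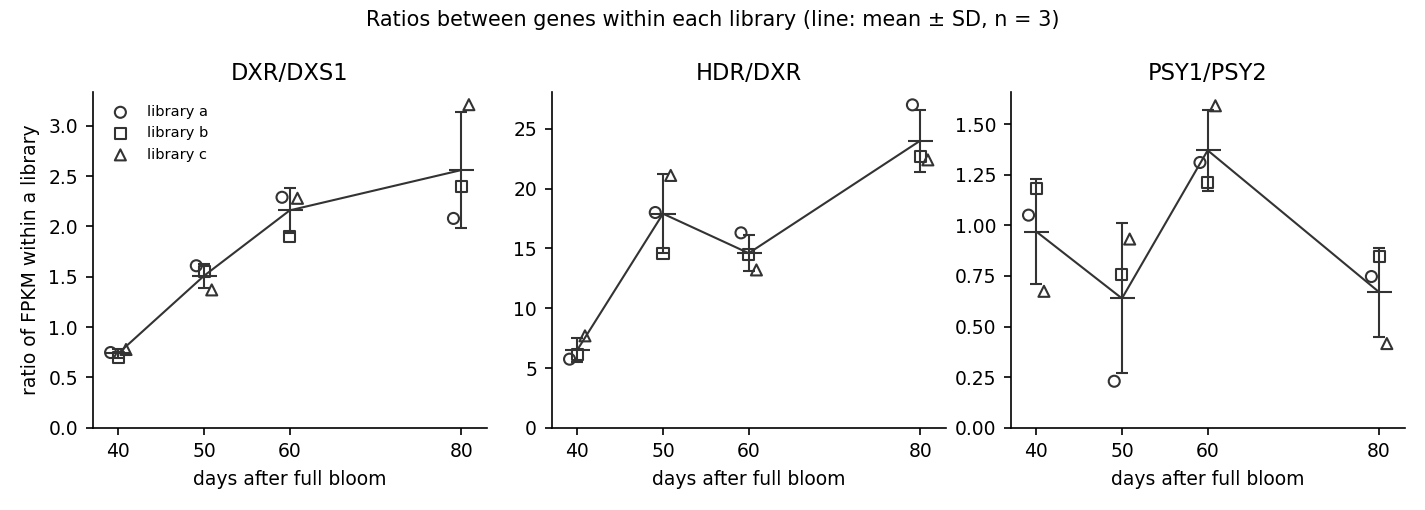
Ratio of FPKM within each library (no pseudocount) for DXR to DXS1, HDR to DXR and PSY1 to PSY2 against days after full bloom, with open symbols for libraries a, b and c and lines joining means ± SD (n = 3). Ratios of DXR to DXS1 rise from below 0.8 at 40 days to above 2 in all libraries at 80 days, while those of PSY1 to PSY2 scatter most at 50 days.

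Ranked within each library, the members parted as the berries aged. HDR stood above 95.1% to 96.7% of tested genes at 40 days and above 98.7% to 98.9% at 80 days. DXS1 went from above 80.0% to 81.3% of tested genes at 40 days to above 41.0% to 50.3% at 80 days. PSY1 went from above 55.8% to 60.7% to above 11.9% to 22.4%, with a return to 50.5% to 54.8% at 60 days, and PSY2 from above 56.4% to 65.9% to above 23.5% to 27.3%. DXR kept a place between 66.2% and 76.7% in all 12 libraries.

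**Figure D4:**
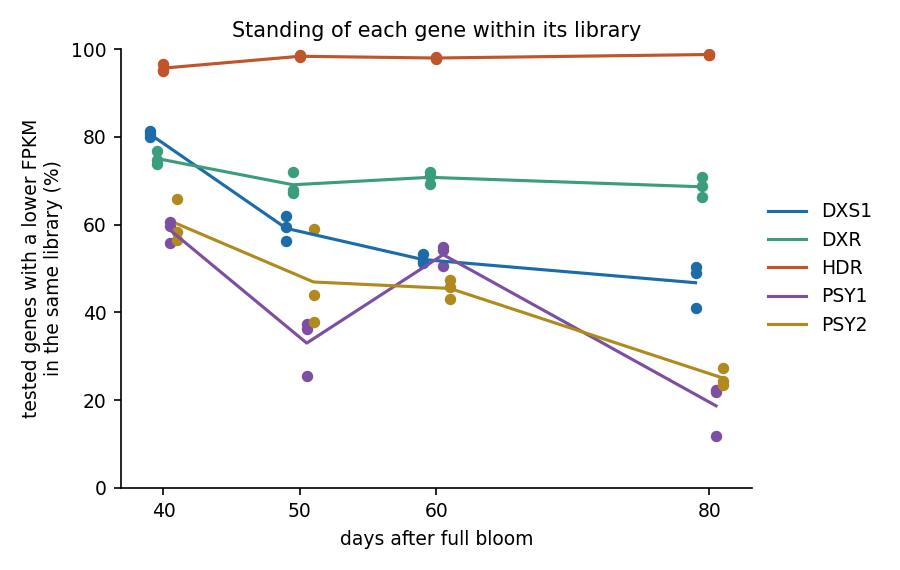
Percentage of the 14743 tested genes with a lower FPKM in the same library, for each gene (colours) and library (points, offset sideways) against days after full bloom; lines join the means of the 3 libraries. HDR stays near the top, DXR stays between 66.2% and 76.7%, and the other 3 genes end at 50.3% or lower at 80 days.

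Likeness of profiles was measured as the root mean square difference over the 12 libraries between log2(FPKM + 1) values, each gene being centred on its own mean. Among the members, DXS1 and PSY2 were closest (0.527), and HDR and PSY1 furthest apart (1.49). Of 8489 other tested IDs with a mean of at least 10 FPKM, the one closest to HDR was VIT_16s0022g02230 (0.143, against a median of 0.589 over these IDs), with 40.3 ± 5.3, 79.1 ± 2.9, 65.2 ± 3.4 and 92.3 ± 4.5 FPKM in order of age (SD, n = 3). The ID closest to DXS1 was VIT_14s0066g01650 (0.173, median 0.887), which had 107 ± 18 FPKM at 40 days and 35.8 ± 6.1, 33.2 ± 3.6 and 21.2 ± 1.6 FPKM at the later ages. The ID closest to DXR was VIT_12s0059g01270 (0.101, median 0.374), with 20.9 ± 1.4 FPKM at 40 days and 13.6 ± 1.3 FPKM at 80 days. PSY1 had no other ID as close, its nearest being at 0.328 (median 1.07), and the nearest to PSY2 was at 0.234 (median 0.878).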

How the data were processed

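RNA sequencing of 12 Victoria fruit libraries was deposited by the authors as 1 table of FPKM for 22580 gene IDs; absolute depth is unknown. Tools named in the submitters' processing notes, without their roles, are edgeR, Cufflinks, TopHat2, FastQC and Trimmomatic 0.36. Genome build and annotation: not given in the sources used here. No ID matched the reference gene table (0 matches), so the lists of other pathway genes and of tissue markers, planned by product name, stayed empty, and no sequence is shown.

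The 14743 genes that reached 1 FPKM in 3 or more libraries, all 5 members among them, were fitted as log2(FPKM + 1) with limma 3.58.1 in R 4.3.3, with 1 mean per age, an intensity trend and 8 residual degrees of freedom. The fit was tested on simulated data. Ratios between genes were compared by exact permutation over the 4 ages, in Python 3.11.15 with numpy 2.4.6 and pandas 2.3.3.

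The members and the 3 ratios were chosen with earlier results of these data known. The comparisons of 40 with 60 and of 50 with 80 days were added after seeing the values. Besides the members, the ID most like each member was found, and at most 2 with a higher and 2 with a lower mean at 80 than at 40 days were named. Alternatives changed the pseudocount (0.1 or 5), the filter (none, or 5 FPKM), the scaling (median of ratios, or each library to a sum of 1000000) and the model: with a replicate block by letter, with sample weights, without the trend, without the minimum fold, on only the ages compared, or with a library left out.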

Additional observations from a re-analysis of the deposited data

How the results depend on the processing

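Between 40 and 80 days the direction of all 5 members held in the 24 alternatives run. Many of these could not change it. The difference itself stays the same under another filter, the replicate block, no trend, no minimum fold or only the ages compared. It also stays the same when a 50- or 60-day library is left out. Scaling to a sum of 1000000 moved the median of all tested genes to -0.35; HDR (0.995, limma adjusted p = 6.93e-05, and 0.995 over the 4 ages) then lost its call by the minimum difference. With no minimum fold DXR was called too (-0.60, and 0.60 over the 4 ages), and the members called numbered 5 from 40 to 50 days, 2 from 50 to 60, 4 from 60 to 80 and 4 from 40 to 60 days. From 50 to 60 days no member was called (0, where PSY1 had been) with a pseudocount of 5, scaling to a sum of 1000000, sample weights, or without library a at 50 days. A pseudocount of 5 left 1 member called at the step from 60 to 80 days and 0 between 50 and 80 days; scaling to a sum of 1000000 gave 2 between 40 and 60 days. With single libraries left out the members called ranged from 0 to 1 (50 to 60 days), 1 to 2 (40 to 60 days) and 1 to 2 (50 to 80 days). HDR was called from 40 to 50 days with median-of-ratios scaling (1.01) and with sample weights (1.09). DXS1 was called from 50 to 80 days with scaling to a sum of 1000000 (-1.01). Small differences from 50 to 60 days changed sign: DXR was -0.029 with scaling to a sum of 1000000, -0.019 with sample weights and -0.007 without library c at 50 days, and PSY2 was 0.19 without library a at 50 days (with single libraries left out, -0.007 to 0.17 for DXR and -0.39 to 0.19 for PSY2); the cause was not tested. The log2 ratio of PSY1 to PSY2 missed the threshold in each alternative, with exact permutation p from 0.0501 to 0.257, and the other ratios passed in each. Another ID was nearest to PSY1 with a pseudocount of 0.1 (0.4), and to PSY2 with a pseudocount of 5 (0.144) and with scaling to a sum of 1000000 (0.231). No pairing of the libraries by replicate letter was evident: correlations of same-letter deviations ranged from -0.161 to 0.189, and 5 of 12 libraries correlated best with their own letter. With the replicate block, all calls of members were as without it (4 from 40 to 80 days; PSY1 -2.64), though DXS1 no longer passed the adjusted p alone from 50 to 60 days (limma adjusted p = 0.0549) and from 60 to 80 days (0.0518), and from 40 to 80 days 3404 of all tested genes were called. Over all tested genes the calls from 40 to 80 days numbered 8870 with no minimum fold and 2011 with a pseudocount of 5, against 3411. The alternative without 40-day library c and 80-day library a was chosen after seeing the data.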
